A study of Mustela putorius furo with 20 samples.

Results

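The cadherin superfamily was described in the outer subventricular zone (oSVZ) of the developing ferret cortex, below the coronal gyrus (CG) and below the suprasylvian sulcus (SSS). Its members were all genes whose symbol names a cadherin, a cadherin-related gene, a protocadherin, a seven-pass Celsr cadherin, a Fat or Dachsous cadherin or a calsyntenin, with no measured value used in the choice. These were 56 of the 32057 genes in the counted table, and 43 of the 56 had enough reads to be among the 12669 genes tested. In the deposited table the symbols do not stand beside their own identifiers, and each identifier was given the symbol at its place in sorted order. That order was inferred from the values and not stated by the authors, so every gene name below rests on it. With it 30 ribosomal protein genes had a median of 716 CPM, counts scaled to library size, against 1.99 CPM with symbols read line by line, and *CDH5*, *CDH8* and *CDH11*, neighbours in mammalian genomes, spanned 3 lines of the table against 19. The RNA came from Nissl-stained, laser-captured oSVZ of the left hemisphere of 10 ferret kits with no treatment or engineered allele given, 5 at postnatal day 15 (P15) and 5 at postnatal day 5 (P5). Each animal gave 1 CG and 1 SSS library, which made 20 libraries in 4 groups of 5: P15 CG, P5 CG, P15 SSS and P5 SSS. Captured tissue is a mixture of cells, and no cell type was sorted. The design compared P15 with P5 within each region, and the CG with the SSS within each age and animal, around the onset and the middle of cortical folding.

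Cadherins are membrane proteins whose outer part is a chain of cadherin repeats held stiff by calcium. Classical and type II cadherins bind like molecules on the neighbouring cell and hold on to actin through catenins, which in the ventricular zone makes the belt of adherens junctions between radial glia. Protocadherins adhere more weakly and serve contact recognition, sorting and axon growth, while Fat, Dachsous and Celsr cadherins are very large proteins that carry polarity signals from cell to cell. Calsyntenins carry cadherin repeats too, and are known from kinesin-driven transport and from synapses.

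Reads assigned to genes were 2488477 to 4277326 per library, and values are given as CPM, counts scaled to the size of each library with TMM factors. They are not divided by gene length, so levels are compared between libraries and not between genes. *CDH2* took 18.1% and *FAT1* 14.3% of all reads of the family. Radial glial markers, 10 of 13 listed, summed to 6894 to 11599 CPM over the 20 libraries, and those of ependyma and choroid plexus, 5 of 6 listed, to at most 19.7 CPM. The P15 SSS library of animal 4 stood apart, with no read in 1371 tested genes against 49 to 366 in the other P15 libraries, and it was the lowest of its group for 21 of the 43 members tested (48.8%; 36.5% of all genes tested). The libraries of P5 animal 1 were the lowest of their group for 18 members in the CG (41.9%, against 25% of all genes) and for 20 in the SSS (46.5%, against 24%). For the members, values without the P15 SSS library of animal 4 or without P5 animal 1 follow where leaving it out changed a call. They also follow for some members where it crossed into the range of the other age or lay below its group.

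Members of this family were called with age and not with region. Few genes of any kind were called with region, 0.0395% of all genes tested at P5 and 0.0158% at P15. At P15, 11 of the 43 members tested were higher than at P5 in the CG (25.6%, against 7.39% of all genes tested) and 4 were lower (9.3%, against 5.72%), at a false discovery rate (FDR) under 0.05. In the SSS 9 members were higher (20.9%, against 8.19%) and 6 lower (14%, against 6.46%). Both regions thus had 15 called members, 34.9% of those tested, beside 13.1% of all genes in the CG and 14.6% in the SSS. The lists of the regions, which come from the same animals, share 11 members, which are 73.3% of each, and 19 members were called in at least 1 region. P15 and P5 libraries did not overlap for 11 members in the CG (25.6%, against 12.8% of all genes) and for 11 in the SSS (25.6%, against 9.95%). The median log2 fold change of the members was 0.55 in the CG and 0.53 in the SSS, beside -0.01 and -0.01 over all genes tested, with 32 and 27 of the 43 members above 0. These are bulk measurements, in which fewer cells of a type and less RNA per cell cannot be told apart.

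**Figure D1:**
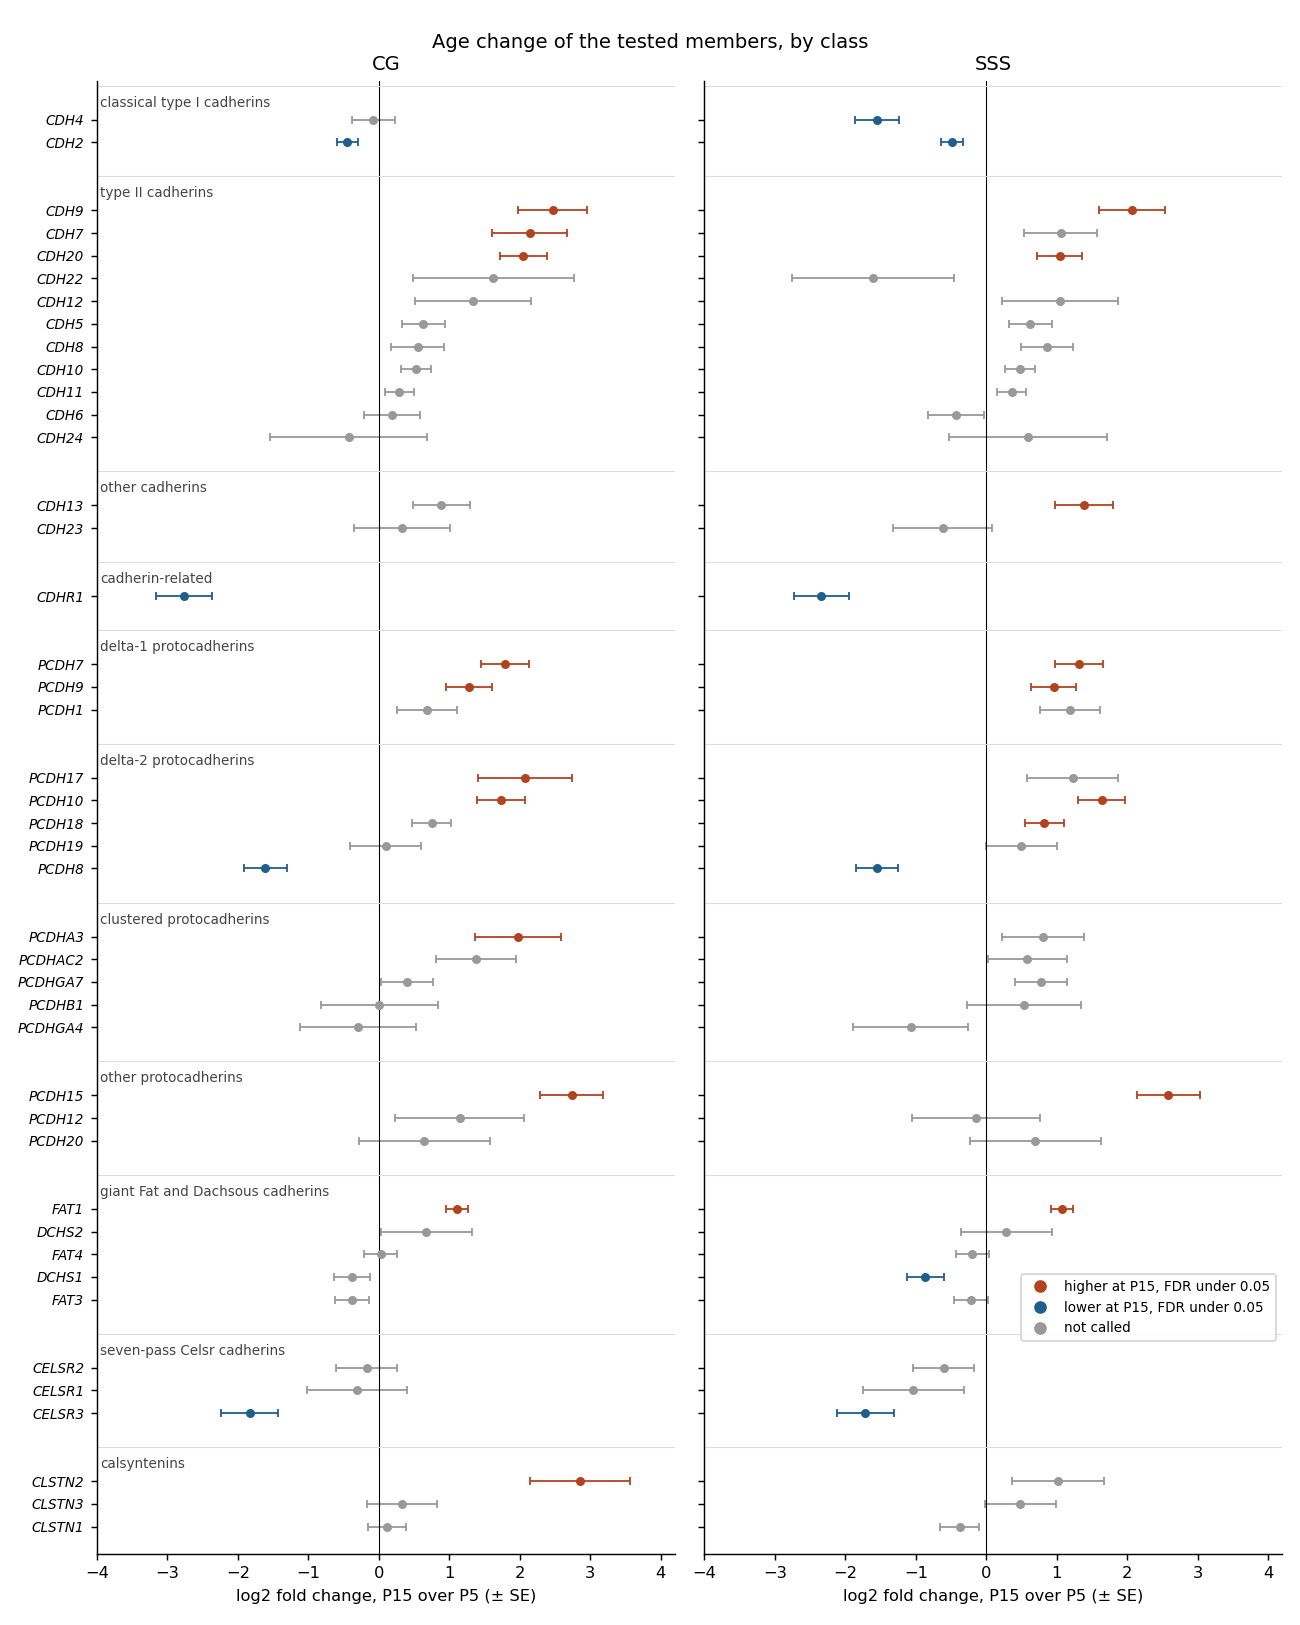
Log2 fold change of P15 over P5 with its standard error (horizontal axis) for the 43 members tested, grouped by class (vertical axis), in the CG (left) and the SSS (right). Red points were higher and blue points lower at P15 at an FDR under 0.05, 11 and 4 in the CG and 9 and 6 in the SSS, and grey points were not called.

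Of the classical type I cadherins, *CDH2* and *CDH4* had enough reads to test. *CDH2* (ENSMPUG00000006602), N-cadherin, is the adherens junction cadherin of radial glia and neurons. It had 444, 393, 346, 362 and 447 CPM in the 5 P15 CG libraries, against 475, 447, 601, 583 and 607 CPM in the 5 P5 CG libraries. The SSS libraries had 404, 362, 459, 398 and 417 CPM in the 5 P15 SSS libraries, against 509.8, 523, 593, 563 and 671 CPM in the 5 P5 SSS libraries. The ages did not overlap in the SSS and met in the CG, where the lowest P5 library lay level with the highest P15 library. *CDH2* was lower at P15 in both regions (log2 fold change -0.45, SE 0.151, FDR = 0.0476 in the CG and log2 fold change -0.49, SE 0.151, FDR = 0.0269 in the SSS). This small change stood close to the threshold. In the CG it was lost in 12 of 20 alternatives, which were those without any 1 of P5 animals 3, 4 and 5 or P15 animals 2, 3, 4 and 5 (FDR 0.0578 to 0.14) and those with RLE scaling (FDR 0.0599), library size scaling (FDR 0.12), no filter (FDR 0.169), a filter of 1 CPM in 10 libraries (FDR 0.0519) or the compared groups alone (FDR 0.0686). In the SSS it was lost in 6 of 20, without P5 animal 3 or 5 or P15 animal 2 (FDR 0.0544 to 0.0912) and with library size scaling (FDR 0.0656), no filter (FDR 0.113) or the compared groups alone (FDR 0.071). The FDR over the alternatives was 0.0117 to 0.169 in the CG and 0.00577 to 0.113 in the SSS.

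*CDH4* (ENSMPUG00000007233), R-cadherin, which can pair with N-cadherin, was lower at P15 in the SSS alone. It had 21.8, 24.8, 21.2, 11.3 and 21.2 CPM in the 5 P15 SSS libraries, against 55.5, 56.3, 92.1, 37.6 and 52.6 CPM in the 5 P5 SSS libraries, and no P15 library reached any P5 library (log2 fold change -1.55, SE 0.311, FDR = 0.000733; called in 20 of 20 alternatives). In the CG it had 25.7, 30.1, 34, 62.9 and 56.7 CPM in the 5 P15 CG libraries, against 27.8, 46.8, 58.1, 41.5 and 46.5 CPM in the 5 P5 CG libraries, which overlapped throughout (log2 fold change -0.08, SE 0.302, FDR = 0.908). That its age change differs between the regions did not pass the test across all genes, as given with the regional comparisons.

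Type II cadherins, which sort neurons and axons by the types they carry, mostly leaned upwards with age. Of 13 members 11 were tested, 3 rose in the CG and 2 in the SSS, none fell, and the median log2 fold change was 0.63 in the CG and 0.62 in the SSS. Among all genes tested, 7.39% rose and 5.72% fell in the CG, and 8.19% rose and 6.46% fell in the SSS. *CDH9* (ENSMPUG00000015252), known from synapse formation in hippocampus and retina of mice, had 15.5, 34.6, 28.4, 21.4 and 26.6 CPM in the 5 P15 CG libraries, against 2.09, 10.2, 4.19, 1.45 and 4.74 CPM in the 5 P5 CG libraries. It had 39.1, 24.5, 31.5, 51.9 and 35 CPM in the 5 P15 SSS libraries, against 4.65, 9.95, 9.75, 2.89 and 15.6 CPM in the 5 P5 SSS libraries. The ages did not overlap in either region, and *CDH9* rose in both (log2 fold change 2.47, SE 0.486, FDR = 0.000611 in the CG and log2 fold change 2.07, SE 0.47, FDR = 0.00252 in the SSS). Its reads were 404 in the P15 CG against 75 in the P5 CG, and 545 in the P15 SSS against 143 in the P5 SSS.

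*CDH20* (ENSMPUG00000016496) had 79.7, 144, 111, 90.0 and 63.6 CPM in the 5 P15 CG libraries, against 21.6, 22.5, 33.8, 15.7 and 24 CPM in the 5 P5 CG libraries, so that the lowest P15 library stood well above the highest P5 one. In the SSS it had 69, 121, 98.1, 25.3 and 85.4 CPM in the 5 P15 SSS libraries, against 61.6, 29.9, 24.5, 44.8 and 34 CPM in the 5 P5 SSS libraries, where the P15 library of animal 4 lay down among the P5 libraries. *CDH20* rose in both regions (log2 fold change 2.05, SE 0.329, FDR = 4.24e-05 in the CG and log2 fold change 1.04, SE 0.319, FDR = 0.0246 in the SSS). The SSS call was lost without P5 animal 2, 3 or 5 or P15 animal 2 or 3 (FDR 0.0623 to 0.0912) and with the compared groups alone (FDR 0.0584; 0.00205 to 0.0912 over 20 alternatives), while the CG call held in all 20. Without the P15 SSS library of animal 4 the SSS value was 1.26 (FDR 0.00205).

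*CDH7* (ENSMPUG00000016595), which lies within 22 lines of *CDH19* and *CDH20* in the table, had 51.4, 72.2, 114, 48 and 18.6 CPM in the 5 P15 CG libraries, against 6.6, 19.8, 14.8, 17.7 and 9.8 CPM in the 5 P5 CG libraries. Only the P15 library of animal 5 dipped into the P5 range, and *CDH7* rose in the CG (log2 fold change 2.14, SE 0.53, FDR = 0.00581). In the SSS it had 21.8, 28.1, 118, 10.8 and 25.2 CPM in the 5 P15 SSS libraries, against 21.1, 19.9, 18.6, 3.98 and 35.2 CPM in the 5 P5 SSS libraries, where the library of animal 3 stood alone and the rest overlapped (log2 fold change 1.05, SE 0.515, FDR = 0.181; called in 1 of 20 alternatives, with no filter, FDR 0.0349). *CDH11* (ENSMPUG00000004907), found in mesenchyme and in cortical neurons, had the most reads of this class and did not pass the test at either region (log2 fold change 0.29, SE 0.209, FDR = 0.417 in the CG and log2 fold change 0.36, SE 0.209, FDR = 0.277 in the SSS). *CDH10* and *CDH5* had small positive values in both regions, with FDR 0.102 and 0.181 in the CG and 0.133 and 0.174 in the SSS, and *CDH5* was called only without P5 animal 3 (FDR 0.0446 in the CG and 0.0243 in the SSS). *CDH5* is VE-cadherin of endothelium, whose other markers, 8 of 8 listed, summed to 355 to 408 CPM in the P15 CG against 118 to 276 CPM in the P5 CG. In the SSS that sum was 281 to 404 CPM at P15 against 92 to 291 CPM at P5, and its part in *CDH5* was not tested.

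The delta protocadherins are unclustered protocadherins with conserved cytoplasmic motifs. In each region 5 of them were called, beside 13.1% of all genes tested in the CG and 14.6% in the SSS. The short classes were not tested against such shares. Of the delta-1 genes all 3 were tested, and 2 rose in both regions. *PCDH7* (ENSMPUG00000003135), known from retinal axon growth in Xenopus, had 119, 167, 197, 131 and 127 CPM in the 5 P15 CG libraries, against 8, 42.9, 67.8, 45.2 and 49.9 CPM in the 5 P5 CG libraries. Its SSS libraries had 124, 180.3, 160, 80.8 and 98.2 CPM in the 5 P15 SSS libraries, against 24.4, 80.3, 61.1, 54.6 and 38.8 CPM in the 5 P5 SSS libraries. The closest pair, 80.8 CPM in the P15 and 80.3 CPM in the P5 SSS, just kept the ages apart. *PCDH7* rose in both (log2 fold change 1.79, SE 0.343, FDR = 0.000439 in the CG and log2 fold change 1.31, SE 0.339, FDR = 0.00762 in the SSS), and both calls held in all 20 alternatives. Without P5 animal 1, the lowest of both P5 groups, the values were 1.52 in the CG and 1.13 in the SSS.

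*PCDH9* (ENSMPUG00000004746), the delta-1 gene with the most reads, had 117, 266, 272, 177 and 155 CPM in the 5 P15 CG libraries, against 26.8, 48.3, 126, 102 and 102 CPM in the 5 P5 CG libraries. In the CG the P15 library of animal 1 lay under the P5 library of animal 3, and otherwise the ages were apart. Its SSS libraries had 179.9, 242, 256, 205 and 201 CPM in the 5 P15 SSS libraries, against 77, 43.6, 156, 132 and 151 CPM in the 5 P5 SSS libraries, with no overlap. *PCDH9* rose in both regions (log2 fold change 1.28, SE 0.324, FDR = 0.00701 in the CG and log2 fold change 0.95, SE 0.321, FDR = 0.0418 in the SSS). The SSS call was lost without P5 animal 1, 2 or 4 or P15 animal 2, 3 or 5 (FDR 0.0576 to 0.0929; 0.000369 to 0.0929 over 20 alternatives). *PCDH1*, the remaining delta-1 gene, had a log2 fold change of 0.68 in the CG (FDR = 0.335) and 1.18 in the SSS (FDR = 0.0604), where 9 of 20 alternatives called it (FDR 0.00791 to 0.0494), among them the one without the P15 SSS library of animal 4 (FDR 0.0383).

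Of the 5 delta-2 protocadherins, several of which bind the WAVE complex of actin assembly, *PCDH10* rose and *PCDH8* fell in both regions. *PCDH10* (ENSMPUG00000017354), OL-protocadherin, guides thalamic and striatal axons in mice. It had 82.6, 67.3, 134, 86.2 and 55.3 CPM in the 5 P15 CG libraries, against 14.6, 25.5, 35.5, 24.6 and 27.2 CPM in the 5 P5 CG libraries, with a clear gap between the ages. In the SSS it had 133, 114, 134, 41.5 and 82.7 CPM in the 5 P15 SSS libraries, against 46.5, 15.8, 51.1, 17 and 31.9 CPM in the 5 P5 SSS libraries, where the P15 library of animal 4 fell between P5 libraries. It rose by log2 fold change 1.74, SE 0.339, FDR = 0.000557 in the CG and log2 fold change 1.63, SE 0.337, FDR = 0.00094 in the SSS. Without that library the SSS value was 1.83 (FDR 0.000128).

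*PCDH8* (ENSMPUG00000001889), arcadlin, draws N-cadherin into endocytosis at active synapses in rat neurons. It went the opposite way, with 58.3, 32, 20, 70.6 and 35.6 CPM in the 5 P15 CG libraries, against 112, 119, 132, 114 and 180.4 CPM in the 5 P5 CG libraries. Below the SSS it had 46.6, 27.4, 39.7, 13.5 and 44.7 CPM in the 5 P15 SSS libraries, against 78, 105, 125, 78.8 and 121 CPM in the 5 P5 SSS libraries. Every P15 library was under every P5 library in both regions (log2 fold change -1.61, SE 0.3, FDR = 0.000316 in the CG and log2 fold change -1.55, SE 0.301, FDR = 0.000475 in the SSS), and the calls held in all 20 alternatives.

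*PCDH17* (ENSMPUG00000000877), a regulator of presynaptic vesicle pools in mouse striatum, had 20.7, 35.9, 44.9, 19.8 and 20 CPM in the 5 P15 CG libraries, against 1.39, 9.29, 8.66, 8.7 and 5.37 CPM in the 5 P5 CG libraries. The ages did not overlap, and the gene rose in the CG (log2 fold change 2.07, SE 0.666, FDR = 0.0347), a call lost without P5 animal 1 or 5 or P15 animal 2 or 3 (FDR 0.083 to 0.112) and with limma-voom (FDR 0.0575; 0.00136 to 0.112 over 20 alternatives). In the SSS it had 17.2, 35.7, 37.5, 0 and 21.5 CPM in the 5 P15 SSS libraries, against 13.2, 4.12, 20.9, 2.17 and 7.22 CPM in the 5 P5 SSS libraries. The P15 library of animal 4 had no read of it, and the change did not pass the test (log2 fold change 1.22, SE 0.648, FDR = 0.223). Without that library it did (log2 fold change 1.53, SE 0.515, FDR 0.0412), as it did without both libraries of that animal (FDR 0.043). *PCDH18* (ENSMPUG00000016149) had 107.8, 71.1, 92.9, 94.8 and 48.8 CPM in the 5 P15 SSS libraries, against 57.6, 49.8, 38.3, 45.9 and 43.9 CPM in the 5 P5 SSS libraries, with the P15 library of animal 5 among the P5 libraries, and rose in the SSS (log2 fold change 0.82, SE 0.278, FDR = 0.0435). That call was lost without any 1 of P5 animals 2 to 5 or P15 animals 1 to 4, or without the P15 SSS library of animal 4 alone (FDR 0.0539 to 0.116; 0.021 to 0.116 over 20 alternatives). In the CG it had a like value that was not called (log2 fold change 0.75, SE 0.278, FDR = 0.0725), although 5 of 20 alternatives called it, among them the one without P5 animal 1 (log2 fold change 1.07, FDR 0.00746).

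Among the other protocadherins, *PCDH15* (ENSMPUG00000016898) rose steeply. It is a part of the tip links of inner-ear hair cells, and in cortex its transcript is known from oligodendrocyte precursors. It had 36.2, 119, 115, 77.8 and 69.1 CPM in the 5 P15 CG libraries, against 4.17, 7.2, 6.7, 31.6 and 12.6 CPM in the 5 P5 CG libraries. Its SSS libraries had 60.6, 124, 81.8, 53.7 and 97.5 CPM in the 5 P15 SSS libraries, against 4.65, 12.7, 22.4, 9.04 and 20.1 CPM in the 5 P5 SSS libraries. In the CG the P5 library of animal 4 was the only one near the lowest P15 library, and in the SSS the ages were far apart. *PCDH15* rose in both regions (log2 fold change 2.73, SE 0.445, FDR = 5.2e-05 in the CG and log2 fold change 2.58, SE 0.441, FDR = 9.86e-05 in the SSS). Without P5 animal 4 the CG value was larger still, at 3.44. *PCDH12*, an endothelial protocadherin, and *PCDH20* did not pass the test in either region.

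Clustered protocadherins are made from a gene cluster in which variable first exons join shared last exons, and neurons use chance choices among them to tell their own branches from others. Only 5 entries carry such names here, along 9 neighbouring lines of the table of which 3 have no symbol, and near-identical copies can share or lose reads, so their values are uncertain. *PCDHA3* (ENSMPUG00000008368) had 7.57, 16.3, 17.2, 6.87 and 20.7 CPM in the 5 P15 CG libraries, against 4.87, 6.29, 1.4, 1.74 and 3.16 CPM in the 5 P5 CG libraries. The groups did not overlap, and it rose in the CG (log2 fold change 1.97, SE 0.61, FDR = 0.0278), a call lost without P5 animal 3 or 4 or P15 animal 2, 3 or 5 (FDR 0.0667 to 0.0792; 0.00799 to 0.0792 over 20 alternatives). The rise rests on 222 reads in the P15 CG and 56 in the P5 CG. In the SSS it had 9.77, 18.9, 10.9, 43.3 and 7.4 CPM in the 5 P15 SSS libraries, against 18.3, 11.7, 7.14, 12.3 and 2.11 CPM in the 5 P5 SSS libraries, which overlapped (log2 fold change 0.80, SE 0.58, FDR = 0.399; 0.19 without the P15 library of animal 4, the highest). *PCDHGA7* (ENSMPUG00000008323), with the most reads of the cluster, was not called (log2 fold change 0.40, SE 0.369, FDR = 0.558 in the CG and log2 fold change 0.77, SE 0.37, FDR = 0.171 in the SSS), except in the SSS without P5 animal 4 (FDR 0.019). *PCDHAC2*, *PCDHB1* and *PCDHGA4* were not called either.

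Of 5 giant cadherins tested 1 rose in the CG (7.39% of all genes), and 1 rose and 1 fell in the SSS (8.19% and 6.46% of all genes). *FAT1* (ENSMPUG00000010348), which acts at radial glial and epithelial junctions and on Hippo signalling, had 464, 498, 627, 516 and 637 CPM in the 5 P15 CG libraries, against 234, 212, 281, 242 and 299.6 CPM in the 5 P5 CG libraries. Its SSS libraries had 466, 482, 523, 502 and 490.3 CPM in the 5 P15 SSS libraries, against 257, 214, 252, 197 and 247 CPM in the 5 P5 SSS libraries. No P15 library came near a P5 library, and the spread within groups was small. *FAT1* rose slightly more than 2-fold in both regions (log2 fold change 1.11, SE 0.155, FDR = 5.02e-06 in the CG and log2 fold change 1.08, SE 0.155, FDR = 8.29e-06 in the SSS) and was called in all 20 alternatives. *FAT3* and *FAT4*, of which *FAT4* is the receptor of Dachsous ligands, had FDR 0.345 and 0.964 in the CG and 0.604 and 0.633 in the SSS.

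*DCHS1* (ENSMPUG00000005461), a ligand of *FAT4* that is mutated with it in human periventricular heterotopia, had 88.5, 71.1, 79.9, 32.5 and 74.7 CPM in the 5 P15 SSS libraries, against 83.8, 118, 188, 130.5 and 112 CPM in the 5 P5 SSS libraries. A P15 and a P5 animal crossed, with 88.5 CPM in the P15 and 83.8 CPM in the P5 SSS. *DCHS1* fell in the SSS (log2 fold change -0.86, SE 0.262, FDR = 0.0229). The call was lost without P5 animal 3, P15 animal 2 or the P15 SSS library of animal 4 (FDR 0.1, 0.0561 and 0.0586) and with library size scaling (FDR 0.0542; 0.00999 to 0.1 over 20 alternatives). In the CG it had 57.9, 83, 72.1, 113 and 53.5 CPM in the 5 P15 CG libraries, against 142, 75.8, 111, 77.4 and 86.9 CPM in the 5 P5 CG libraries, with overlap and no call (log2 fold change -0.38, SE 0.261, FDR = 0.391).

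Of the seven-pass Celsr cadherins, core parts of planar cell polarity, *CELSR3* (ENSMPUG00000014422) fell in both regions. It is the Celsr of postmitotic neurons, needed for the great axon tracts of the mouse forebrain. It had 8.23, 27.1, 15.1, 10.3 and 16.4 CPM in the 5 P15 CG libraries, against 19.5, 57.6, 70.9, 72.2 and 54.7 CPM in the 5 P5 CG libraries. Below the SSS it had 11.5, 35.1, 10.6, 5.87 and 26.6 CPM in the 5 P15 SSS libraries, against 43, 68.3, 71.8, 67.2 and 46 CPM in the 5 P5 SSS libraries. In the CG 1 P5 library, that of animal 1, lay within the P15 range, and in the SSS the ages were apart (log2 fold change -1.83, SE 0.407, FDR = 0.00215 in the CG and log2 fold change -1.72, SE 0.404, FDR = 0.0034 in the SSS). Without P5 animal 1 the CG value was -2.04 (FDR 0.000621). *CELSR2* (ENSMPUG00000003016), the Celsr of ependymal cilia and dendrites and the one with the most reads, did not pass the test (log2 fold change -0.17, SE 0.435, FDR = 0.862 in the CG and log2 fold change -0.61, SE 0.436, FDR = 0.399 in the SSS). *CELSR1*, the Celsr of progenitors, had FDR 0.846 in the CG and 0.378 in the SSS.

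*CDHR1* (ENSMPUG00000008527), photoreceptor cadherin, showed the steepest fall of the members called. It had 11.2, 21.2, 30.0, 8.01 and 13.1 CPM in the 5 P15 CG libraries, against 94.5, 56.1, 187, 132 and 104 CPM in the 5 P5 CG libraries. The SSS libraries had 6.32, 49, 22.3, 37 and 15.5 CPM in the 5 P15 SSS libraries, against 131, 173, 147, 102 and 102 CPM in the 5 P5 SSS libraries. The highest P15 value stayed under the lowest P5 value in both regions (log2 fold change -2.76, SE 0.397, FDR = 8.58e-06 in the CG and log2 fold change -2.34, SE 0.389, FDR = 6.57e-05 in the SSS). *CDH13* (ENSMPUG00000009207), T-cadherin, which is held by a lipid anchor and binds adiponectin, had 80.5, 51.6, 44.8, 63.7 and 50.1 CPM in the 5 P15 SSS libraries, against 4.3, 27.1, 25.4, 25.3 and 28.9 CPM in the 5 P5 SSS libraries. The ages did not overlap and *CDH13* rose in the SSS (log2 fold change 1.38, SE 0.41, FDR = 0.0202), a call lost without P15 animal 1 (FDR 0.0602; 0.000876 to 0.0602 over 20 alternatives). In the CG, with 49.4, 34.3, 77.7, 46.9 and 44.7 CPM in the 5 P15 CG libraries, against 4.87, 26.7, 40.5, 41.5 and 23.4 CPM in the 5 P5 CG libraries, it was not called (log2 fold change 0.88, SE 0.405, FDR = 0.159). In both regions the P5 library of animal 1 lay far below the others. Without that animal the values were smaller, 1.12 in the SSS (FDR 0.00866) and 0.62 in the CG (FDR 0.169).

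Of the calsyntenins, *CLSTN2* (ENSMPUG00000004999), known from inhibitory synapses in mice, had 4.94, 13.7, 38.1, 14.9 and 4.73 CPM in the 5 P15 CG libraries, against 0, 4.2, 1.96, 2.61 and 1.58 CPM in the 5 P5 CG libraries. Every P15 library was above every P5 library, though its lowest, at 4.73 CPM, barely cleared the highest P5 value of 4.2 CPM. *CLSTN2* rose in the CG (log2 fold change 2.86, SE 0.709, FDR = 0.00587). It had 273 reads in the P15 CG and 35 in the P5 CG, where 1 of 5 libraries had none, so the size of the rise is uncertain. Without P15 animal 3, the highest, the log2 fold change was 2.17 and the call was lost (FDR 0.0611; 0.000262 to 0.0611 over 20 alternatives). In the SSS, with 12.4, 14.6, 13.3, 36.1 and 11.4 CPM in the 5 P15 SSS libraries, against 1.79, 5.15, 13.1, 14.8 and 8.12 CPM in the 5 P5 SSS libraries, the change did not pass the test (log2 fold change 1.02, SE 0.65, FDR = 0.331). *CLSTN1* (ENSMPUG00000005955), the kinesin adaptor, was not called (log2 fold change 0.11, SE 0.272, FDR = 0.848 in the CG and log2 fold change -0.38, SE 0.273, FDR = 0.399 in the SSS). *CLSTN3* was not called in either region.

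**Figure D2:**
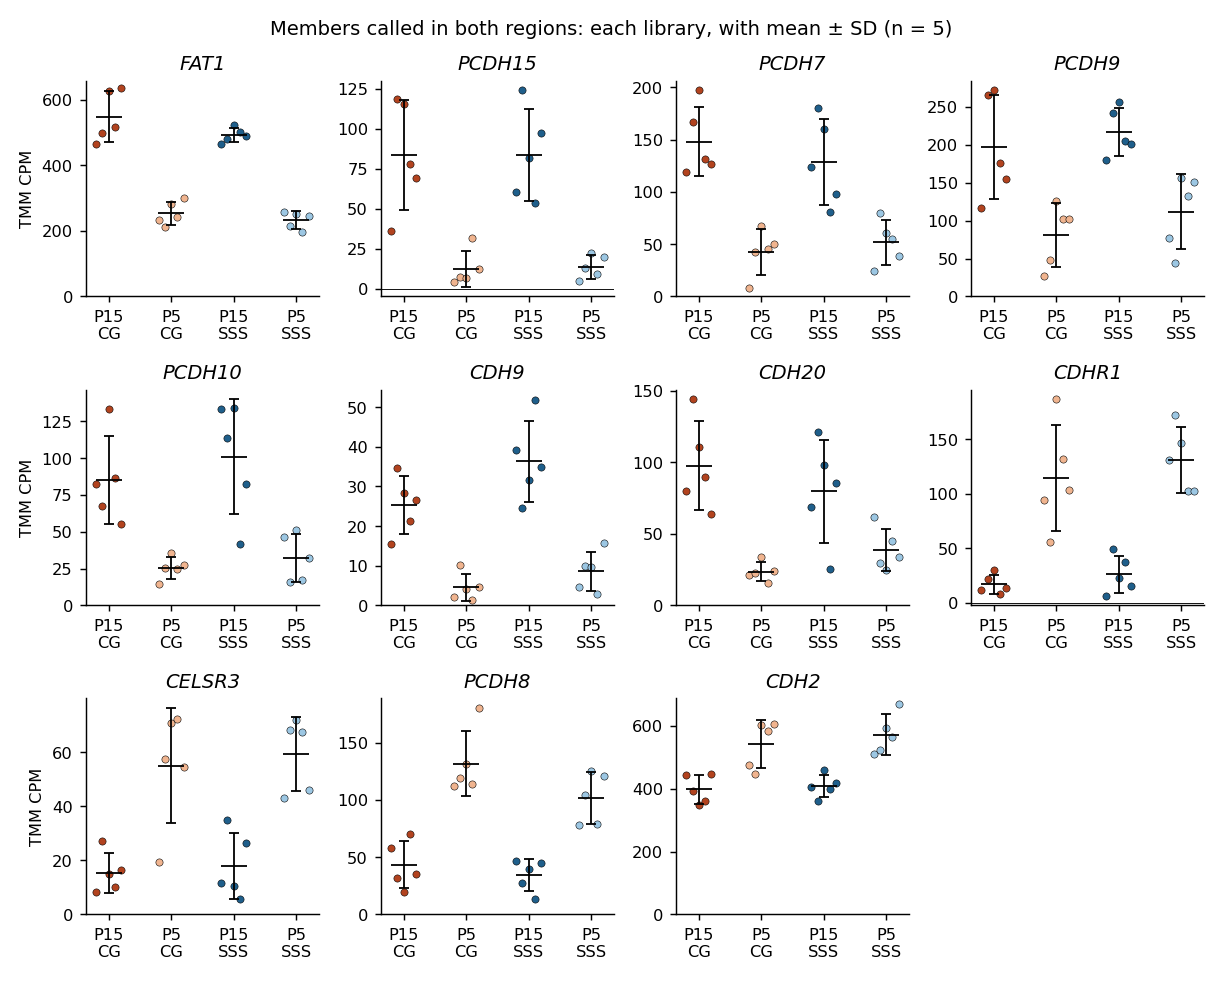
CPM of the 11 members called in both regions in each library (points), with the mean and SD of the 5 libraries of a group, for P15 CG, P5 CG, P15 SSS and P5 SSS from left to right. *FAT1*, *PCDH15*, *PCDH7*, *PCDH9*, *PCDH10*, *CDH9* and *CDH20* were higher at P15, and *CDHR1*, *CELSR3*, *PCDH8* and *CDH2* were lower, *FAT1* with 464 to 637 CPM at P15 against 197 to 299.6 CPM at P5 over both regions.

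Cell type markers moved with age beside these members. For comparison, 7.39% of all genes tested rose and 5.72% fell in the CG, and 8.19% rose and 6.46% fell in the SSS. Oligodendrocyte precursor markers, 5 of 7 listed, rose for 4 of 5 genes tested in both regions. Their sum was 859 to 1494 CPM in the P15 CG against 220.4 to 323 CPM in the P5 CG, and 970 to 1677 CPM in the P15 SSS against 192 to 496 CPM in the P5 SSS, with none at 0 in a group. Markers of myelinating oligodendrocytes rose for 6 of 6 genes tested in both regions, with *MAG* and *MOG* at 0 in both P5 groups and *MOBP* at 0 in the P5 SSS. Astrocyte markers rose for 7 of 8 in both regions, with sums of 4715 to 8385 CPM in the P15 CG against 1147 to 1576 CPM in the P5 CG and 5058 to 7775 CPM in the P15 SSS against 797 to 1397 CPM in the P5 SSS. Young excitatory neuron markers fell for 7 of 8 tested genes in the CG and 8 of 8 in the SSS, their sum reaching 245 to 307 CPM in the P15 CG against 957.5 to 1554 CPM in the P5 CG, and 272 to 404.5 CPM in the P15 SSS against 997 to 1886 CPM in the P5 SSS. Intermediate progenitor markers fell for 3 of 4 in both regions, with *NEUROG1* at 0 in all 4 groups. Microglial markers rose for 4 of 7 in the CG and 5 of 7 in the SSS, with sums of 185.5 to 385 CPM in the P15 CG against 39.9 to 100.4 CPM in the P5 CG and 185 to 323 CPM in the P15 SSS against 52.9 to 99.8 CPM in the P5 SSS. Proliferating cell markers fell for 2 of 5 in the CG and 1 of 5 in the SSS, and their sums overlapped between the ages. Endothelial markers rose for 2 of 8 and 3 of 8, mural cell markers for 1 of 6 in each region, and those of leptomeninges and fibroblasts for 0 of 4 and 1 of 4. Interneuron markers rose for 2 and fell for 3 of 9 in each region, and radial glial markers rose for 4 and fell for 1 of 10. The part of these shifts in the members' changes was not tested.

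Between the CG and the SSS no member passed the test at either age. At P5, 0 of 43 members were called by edgeR with the animal as a block (0.0395% of all genes, 5 genes), with 5 members at an unadjusted p under 0.05 (11.6%, against 8.03% of all genes). There DESeq2 called 1 member among 106 genes called, and limma-voom called 0 members among 54 genes called. At P15, 0 members were called (0.0158% of all genes, 2 genes), with 2 at an unadjusted p under 0.05 (4.65%, against 3.72% of all genes). No member was called by DESeq2 or limma-voom, which called 11 and 9 of all genes. At P5 14 of the 43 members had a positive log2 fold change of CG over SSS, with a median of -0.24 beside 0.02 over all genes. At P15 20 of 43 were positive, with a median of -0.04 beside 0.03.

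At P5 the member with the lowest p was *CLSTN2*. It had 0, 4.2, 1.96, 2.61 and 1.58 CPM in the CG, against 1.79, 5.15, 13.1, 14.8 and 8.12 CPM in the SSS of the same animals, animals 1 to 5 in turn. Although the libraries of the regions overlapped, 5 of 5 animals had the lower value below the CG. It did not pass edgeR's test (log2 fold change -2.15, SE 0.656, unadjusted p = 0.00308, FDR = 0.299). DESeq2 alone, which called 106 of 12669 genes at P5, gave it an FDR of 0.044 (0.044 to 0.891 over 20 alternatives). *CLSTN2* had 35 reads in the P5 CG and 143 in the P5 SSS. *PCDH9* had 26.8, 48.3, 126, 102 and 102 CPM in the CG, against 77, 43.6, 156, 132 and 151 CPM in the SSS, and 1 of 5 animals had the higher value below the CG (log2 fold change -0.50, SE 0.183, unadjusted p = 0.0107, FDR = 0.469, edgeR). *PCDHA3* had 4.87, 6.29, 1.4, 1.74 and 3.16 CPM in the CG, against 18.3, 11.7, 7.14, 12.3 and 2.11 CPM in the SSS, again with 1 of 5 animals higher below the CG (log2 fold change -1.49, SE 0.637, unadjusted p = 0.0276, FDR = 0.544). *CDH20* and *CDH9* completed the 5, with log2 fold changes of -0.69 and -0.99 and FDR 0.559 and 0.58. All 5 had their lower mean in the CG. Without P5 animal 1 the values of *CDH20* and *CDH9* were -0.48 and -0.96 (unadjusted p = 0.155 and 0.0557, edgeR). That of *CLSTN2* was then -1.97 (unadjusted p = 0.00624, edgeR).

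At P15 *CDH4* had 25.7, 30.1, 34, 62.9 and 56.7 CPM in the CG, against 21.8, 24.8, 21.2, 11.3 and 21.2 CPM in the SSS. The value below the CG was the higher one for 5 of 5 animals and the regions did not overlap, yet it did not pass the test across all genes (log2 fold change 0.98, SE 0.311, unadjusted p = 0.00407, FDR = 0.9997, edgeR; 0.334 to 1 over 20 alternatives). Without the P15 SSS library of animal 4, the lowest, the log2 fold change was 0.65 (unadjusted p = 0.0274, edgeR). *CDH11* leaned towards the SSS within 5 of 5 animals, with 148, 155, 179.5, 137 and 99.6 CPM in the CG, against 156, 159, 256, 247 and 132 CPM in the SSS (log2 fold change -0.37, SE 0.167, unadjusted p = 0.0345, FDR = 0.9997, edgeR). Without the P15 SSS library of animal 4 its log2 fold change was -0.26 (unadjusted p = 0.147, edgeR). The libraries of the regions overlapped. *CDH7* had 51.4, 72.2, 114, 48 and 18.6 CPM in the CG, against 21.8, 28.1, 118, 10.8 and 25.2 CPM in the SSS, and 3 of 5 animals were higher in the CG (log2 fold change 0.83, SE 0.429, unadjusted p = 0.0653, FDR = 0.9997, edgeR). Its log2 fold change was 0.53 without the P15 SSS library of animal 4 (unadjusted p = 0.226, edgeR).

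Whether the regional difference itself changed with age was tested as an interaction, the difference at P15 minus that at P5. No member was called (0% of all genes, 0 of 12669, with 488 genes (3.85%) and 2 members (4.65%) at an unadjusted p under 0.05, and no member by DESeq2 or limma-voom). *CDH4* had the lowest p among the members (log2 difference 1.38, SE 0.429, unadjusted p = 0.00367, FDR = 0.998, edgeR). Without the P15 SSS library of animal 4 the log2 difference was 1.05 (unadjusted p = 0.00895, edgeR). The CG value exceeded the SSS value for 5 of 5 animals at P15 and for 1 of 5 at P5. *CDH20* followed (log2 difference 1.06, SE 0.417, unadjusted p = 0.0173), with the CG above the SSS for 4 of 5 animals at P15 and 1 of 5 at P5, and had a log2 difference of 0.74 without that library (unadjusted p = 0.0487, edgeR). *PCDH7* was next (log2 difference 0.62, SE 0.312, unadjusted p = 0.0567). A call in one region and not in the other, as for *CDH4* or *CLSTN2* with age, is therefore not shown to differ between the regions.

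**Figure D3:**
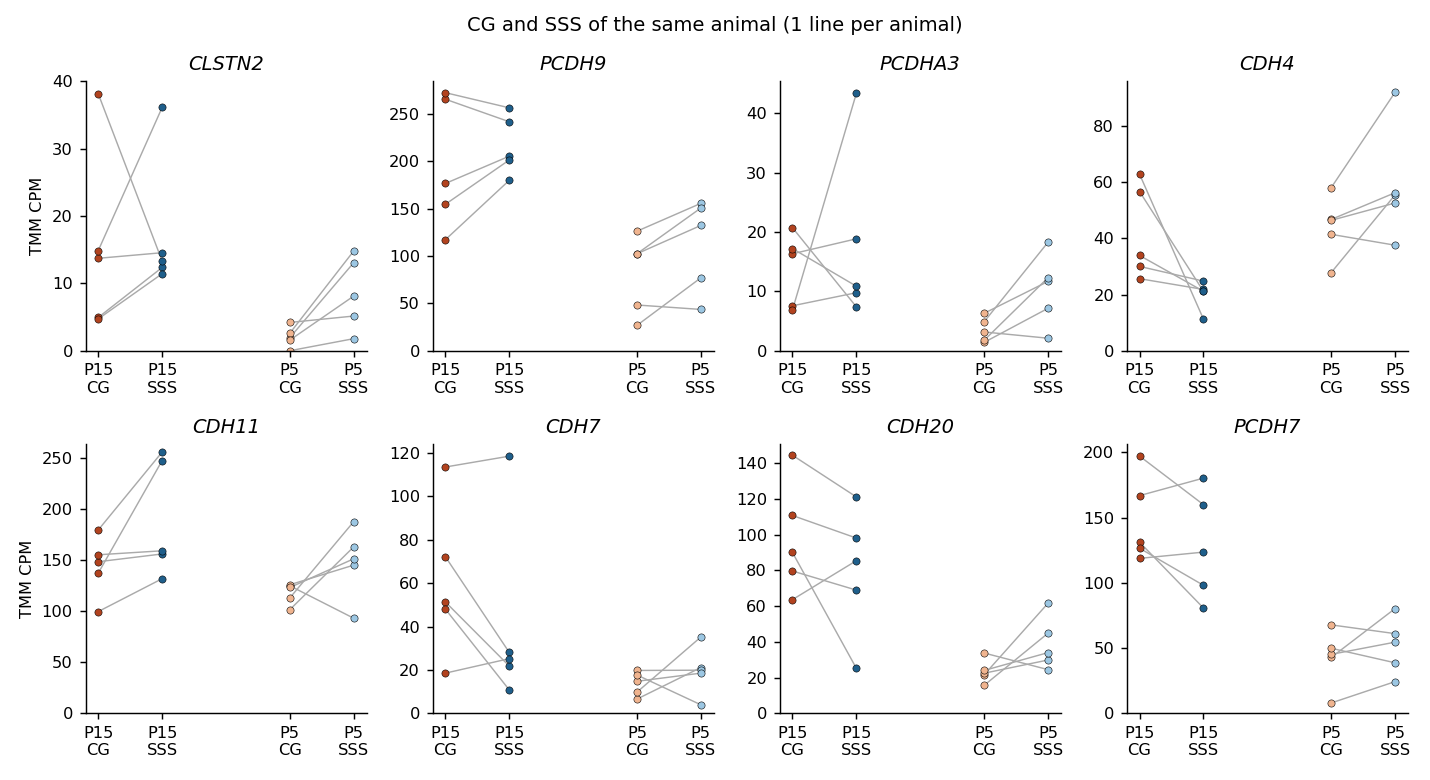
CPM in the CG and the SSS of the same animal (joined by a line) at P15 (left) and P5 (right), for the members with the lowest p in a regional comparison or in the interaction. The CG value of *CDH4* was the higher one for 5 of 5 P15 animals and that of *CLSTN2* the lower one for 5 of 5 P5 animals, and none of the 8 genes passed the regional test by edgeR.

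Genes that work with these proteins were followed as 4 lists, and their calls were not followed in the alternatives. Among all genes tested, 7.39% rose and 5.72% fell in the CG, and 8.19% rose and 6.46% fell in the SSS. These short lists were not tested against those shares. Of the catenins, p120 relatives and actin linkers, 10 of 13 were tested, of which 3 rose and 1 fell in the CG and 3 rose in the SSS (median log2 fold change 0.03 and -0.05). *CTNND2*, delta-catenin of neurons, binds the inner side of classical cadherins. It had 709.6, 759.5, 798, 575 and 601 CPM in the 5 P15 CG libraries, against 368, 364, 475, 397 and 453 CPM in the 5 P5 CG libraries, and rose there and in the SSS (log2 fold change 0.74, SE 0.173, FDR = 0.0033 in the CG and log2 fold change 0.74, SE 0.173, FDR = 0.00336 in the SSS). *PKP4*, a p120 relative, averaged 439 ± 76.8 CPM in the P15 CG and 223 ± 29.2 CPM in the P5 CG, and 520 ± 129.9 CPM in the P15 SSS and 215 ± 38.3 CPM in the P5 SSS (SD, n = 5 each). It rose in both regions (log2 fold change 0.97, SE 0.182, FDR = 0.000306 in the CG and log2 fold change 1.28, SE 0.183, FDR = 7.63e-06 in the SSS). *VCL*, vinculin, which reinforces junctions under tension, also rose in both (FDR 0.0191 in the CG and 0.0385 in the SSS). Its P15 SSS library of animal 4, at 12.6 CPM, lay within the P5 SSS range of 1.43 to 25.7 CPM. *CTNNB1*, beta-catenin, which links cadherins to actin and carries Wnt signals, had 301, 162, 284, 357 and 326 CPM in the 5 P15 CG libraries, against 325, 446, 533, 645 and 500.2 CPM in the 5 P5 CG libraries. Its groups overlapped, and it fell in the CG (log2 fold change -0.78, SE 0.226, FDR = 0.0195) and was not called in the SSS (log2 fold change -0.32, SE 0.225, FDR = 0.387).

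The partners of protocadherins and calsyntenins had 18 of 21 genes tested, with 1 rise in the CG and 2 rises and 1 fall in the SSS. Of all genes tested, 7.39% rose in the CG, and 8.19% rose and 6.46% fell in the SSS. *CYFIP2*, a part of the WAVE complex that several delta-2 protocadherins bind, had 463, 624, 594, 427 and 328 CPM in the 5 P15 CG libraries, against 153, 165, 281, 216 and 248 CPM in the 5 P5 CG libraries, with no overlap. It rose in both regions (log2 fold change 1.19, SE 0.232, FDR = 0.000499 in the CG and log2 fold change 1.17, SE 0.231, FDR = 0.000594 in the SSS). *NRXN2*, a neurexin, rose in the SSS (log2 fold change 1.10, SE 0.295, FDR = 0.0101), with P15 libraries down to 72.3 CPM and P5 libraries up to 80.4 CPM. *CTCF*, the insulator protein that guides promoter choice in the protocadherin cluster, fell in the SSS (log2 fold change -0.89, SE 0.199, FDR = 0.00206) and was not called in the CG (log2 fold change -0.49, SE 0.198, FDR = 0.1).

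For cadherin processing and traffic, 19 of 21 genes were tested, of which 3 rose and 1 fell in the CG and 2 rose and 1 fell in the SSS. Among all genes tested, 7.39% rose and 5.72% fell in the CG, and 8.19% rose and 6.46% fell in the SSS. The TMTC enzymes add mannose to cadherin repeats, and they did not move together. *TMTC4* had 62.9, 51.6, 47.4, 56.1 and 50.2 CPM in the 5 P15 CG libraries, against 236, 169, 158, 219 and 105 CPM in the 5 P5 CG libraries, with no overlap, and fell in both regions (log2 fold change -1.72, SE 0.229, FDR = 2.15e-06 in the CG and log2 fold change -1.32, SE 0.227, FDR = 9.96e-05 in the SSS). *TMTC1* rose in both (log2 fold change 2.21, SE 0.672, FDR = 0.0255 in the CG and log2 fold change 2.01, SE 0.663, FDR = 0.0379 in the SSS), and *TMTC2* rose in the CG (log2 fold change 0.92, SE 0.279, FDR = 0.0257; FDR 0.0642 in the SSS). The sheddase *ADAM9* rose in the SSS (FDR 0.00103) and the junction GTPase *RAP1A* in the CG (FDR 0.0357). Of the Fat and planar polarity partners 15 of 18 were tested, with 1 rise in the CG (7.39% of all genes) and 2 rises in the SSS (8.19% of all genes). *PRICKLE1*, a planar polarity adaptor, rose in the CG (log2 fold change 2.96, SE 0.998, FDR = 0.0453), close to the threshold. It had 318 reads in the P15 CG and 41 in the P5 CG, where 2 of 5 libraries had none, so its size is uncertain. *DVL3* and the Hippo effector *WWTR1* rose in the SSS (FDR 0.00639 and 0.0264). *WWTR1* overlapped there, with P15 libraries down to 14.4 CPM and P5 libraries up to 19.6 CPM.

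**Figure D4:**
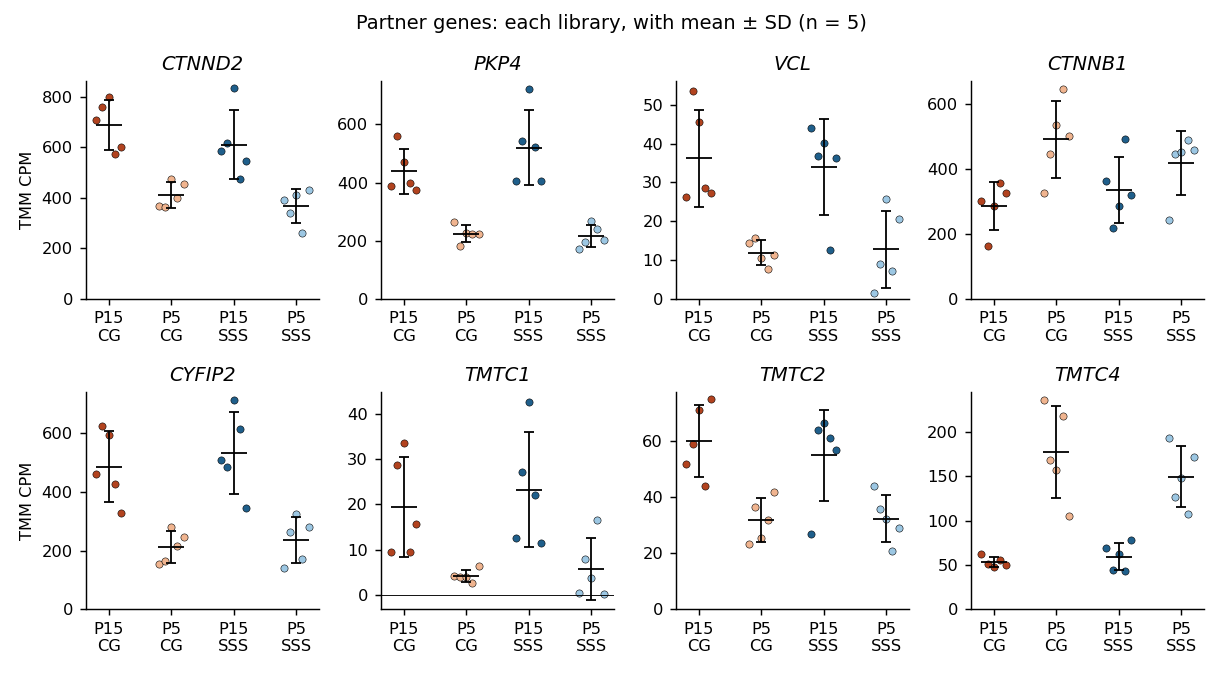
CPM of 8 genes that link, process or assemble actin for cadherins in each library (points), with the mean and SD of the 5 libraries of a group, for P15 CG, P5 CG, P15 SSS and P5 SSS from left to right. *CTNND2*, *PKP4*, *VCL*, *CYFIP2* and *TMTC1* were higher and *TMTC4* was lower at P15 in both regions at an FDR under 0.05, *TMTC2* was called higher in the CG alone, and *CTNNB1* was called lower in the CG alone.

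The 13 members that were not tested had at most 98 reads over the 20 libraries, and 4 of them, *CDHR2*, *CDHR4*, *CDHR5* and *CDH16*, had none. The intestinal and kidney cadherins *CDH17* and *CDH16*, the muscle cadherin *CDH15* and the cadherin-related genes other than *CDHR1* were thus at or near the floor. *CDH19*, known from Schwann cell precursors and glia, had 53 reads in 7 of the 10 P15 libraries and 0 in the 10 P5 libraries. Against a floor of 3 reads over the P5 libraries it was at least 18.4-fold higher at P15. Of the 53 reads, 46 came from P15 animal 3, with 27 in its CG and 19 in its SSS library. Without that animal 7 reads were left and the bound was 3.26-fold, and without its CG library alone it was 10.5-fold, a check chosen after seeing the data. *CDH1*, E-cadherin of epithelia, had 27 reads in 7 P15 libraries and 5 reads in 1 P5 library, and *FAT2*, of cerebellar granule cells, 81 in 7 P15 libraries and 17 in 5 P5 libraries. *CDH17* had 26 reads in 6 P15 libraries and 2 in 2 P5 libraries. The P15 CG library of animal 1 held 13 of the 27 P15 reads of *CDH1*, and the P15 SSS library of animal 2 held 11 of the 26 of *CDH17*. The libraries carry no molecular identifiers, so reads may be copies of a few molecules, and no test was made of these members.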

How the data were processed

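RNA of the laser-captured oSVZ was amplified by single primer isothermal amplification, without molecular identifiers, and sequenced in pairs. Reads were trimmed (Trimmomatic 0.38), inspected (FastQC 0.11.9) and aligned to the genome MusPutFur1.0 (STAR 2.7.9a), and the authors deposited raw counts per gene from featureCounts, with no normalisation. For strand, the setting was not given in the sources used here. Counts can hold copies of 1 molecule, and the floor covers counting error only. The lines of the table are not in identifier order while its symbols appear to be, so symbols were assigned by sorted rank, a pairing inferred here and not stated in the sources used. Under this pairing 30 ribosomal protein genes had a median of 716 CPM, against 1.99 CPM line by line. Gene positions and sequences were not analysed here.

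Genes were filtered with filterByExpr (minimum count 10, minimum total 15), scaled by TMM and fitted with the older quasi-likelihood test of edgeR 4.0.16 in R 4.3.3, on 20 libraries together. Age was compared in a model of the 4 groups, and region and the interaction with the animal as a block, since the labels name the animal of each library. Deviations from the group means in both libraries of 1 animal correlated at 0.046 to 0.246 (median 0.141). P-values were adjusted by the Benjamini-Hochberg method (FDR) across 12669 genes. The fits were tested on simulated data with planted changes, which they recovered in part and least often for the interaction. Changes were planted in genes with many reads, with a fixed spread and no animal effect. The simulation therefore does not probe the pairing or members with few reads. Fold changes used a prior count of 0.125. Called means an FDR under 0.05, in edgeR unless another tool is named. Alternatives used RLE or library size scaling, other filters, edgeR's newer test, DESeq2 1.42.0, limma 3.58.1, other designs, and each animal left out in turn.

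Named members are those called in any comparison, the member of each class with the most reads, the 3 of lowest p in each regional comparison and in the interaction, and *CDHR1*. *CDH10*, *CDH5* and other members given by FDR alone, the called partners and the low-count members were named after their values were seen. The members and lists were chosen with earlier results of these data known.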

Additional observations from a re-analysis of the deposited data

Results flagged for a closer look

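Among the 23 named members, 92 groups of 5 libraries were examined for a single library far from the rest (a gap of over 0.71 of the group's range), and 6 were found, where chance gives about 5% of groups. *CDH4* had 11.3 CPM in the P15 SSS library of animal 4, under 21.2 to 24.8 CPM in the other 4, and *CLSTN2* had 36.1 CPM in the same library, above 11.4 to 14.6 CPM. That library also has the most tested genes without a read. *CDH7* had 118 CPM in the P15 SSS library of animal 3, above 10.8 to 28.1 CPM in the others. At P5, *CDH13* had 4.3 CPM in the SSS library of animal 1, under 25.3 to 28.9 CPM, *PCDHGA7* had 53.5 CPM in the SSS library of animal 4, above 13.2 to 23.8 CPM, and *PCDH8* had 180 CPM in the CG library of animal 5, above 112 to 132 CPM. No member's regional difference was opposite in all animals of the 2 ages.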

How the results depend on the processing

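The counts of called members were within 1.5 times of the reported ones under all alternatives run, with 1 exception. With age, 11 to 16 members were called in the CG and 10 to 16 in the SSS, against 15 in each, and 11 to 15 and 10 to 16 when 1 animal was left out. Of all genes, these alternatives called 1136 to 2209 in the CG and 1272 to 2341 in the SSS, against 1661 and 1856 as reported. Between the CG and the SSS at P5, DESeq2 called 1 member, *CLSTN2*, against 0 as reported. Of all genes tested it called 106 there, against 5 as reported. All other alternatives called 0 in the regional comparisons and the interaction. Without the animal as a block, 0 members were called in both regional comparisons and in the interaction. Replicate numbers do not pair the ages (correlation -0.0914 to 0.117). With the number as a block 16 members were called with age in each region, beside 1890 of all genes in the CG and 2008 in the SSS. Of the 30 calls with age, each of a member in a region, 10 were lost in at least 1 alternative, and 7 that were not called became calls in at least 1. No log2 fold change of a named member turned its sign in a comparison that called or named it. The filter of 1 CPM in 10 libraries kept more genes than the reported one. The interaction was not run on the compared groups alone, since it uses all 4. The depth leaves 13 members untested. With 5 animals per age, p-values with age rest on the spread between libraries within the 4 groups. There both libraries of an animal count as independent. P-values between regions and of the interaction rest on the spread of the differences within animals.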
